A study of Rattus norvegicus with 6 samples.

Results

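Genes of the ON bipolar cell signalling pathway were examined by poly-A RNA sequencing of retina from Sprague-Dawley rats, an outbred laboratory stock, all of them male. The set was given as 10 gene symbols, and each was looked up by its name in the deposited table of 34170 genes. A row was found for 9 of them, namely Grm6, Trpm1, Gpr179, Nyx, Lrit3, Pcp2, Prkca, Gng13 and Cabp5, and all 9 passed the filter on low values. Rgs11 was not analysed here. The diabetic group was 3 rats given streptozotocin, a toxin of the insulin-producing beta cells, by intraperitoneal injection at 60 mg/kg after a fast of 12 h, on each of 5 days in a row. The control group, labelled WT, was 3 rats given citrate buffer by the same route on the same schedule of injections. A fast before injection is not recorded for the controls. A fasting blood glucose above 16.7 mmol/L at 1 week after the last dose defined diabetes. The diabetic rats weighed between 100.4 and 104 g and the controls between 103.4 and 110.5 g. The diabetes was induced by a chemical, no rat is labelled with an engineered allele, and neither the age of the rats nor the time of tissue collection is stated in the labels. Values are FPKM, that is, fragments scaled by the length of the gene model and by the size of the library. The length is that of the whole gene model, so levels of genes of very different length compare only roughly.

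Rod and cone photoreceptors release glutamate in darkness, and light lowers that release. ON bipolar cells, the second-order neurons that signal light onset, sense the change through the metabotropic receptor mGluR6, encoded by Grm6, which acts through a G protein to hold the cation channel TRPM1 shut in darkness. Around the receptor and the channel stand the orphan receptor GPR179, which gathers the proteins that speed up the shutting-off of the G protein, and the leucine-rich repeat proteins nyctalopin (Nyx) and LRIT3, which are needed to place TRPM1 at the dendritic tip. In humans, loss of any of these 5 genes, Grm6, Trpm1, Gpr179, Nyx or Lrit3, causes congenital stationary night blindness of the complete type. Every library held whole retina, in which ON bipolar cells are a minority, so fewer such cells and less RNA in each of them cannot be told apart. Nor can the RNA of a member, Lrit3 included, be assigned to ON bipolar cells over other cells such as photoreceptors.

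The start regions of the genes are shown first for the members that the results turn on. RefSeq promoters of build GRCr8 were matched by symbol for 7 of the 9 members. The 250 bases before the start are printed 5′ to 3′ on the strand of the gene. They are given for Gng13 and Pcp2, whose groups did not overlap, and for Trpm1 and Nyx, the members with a match to TAATCC, the letters known to be bound by the homeodomain factors Otx2 and Crx. Capitals mark TAATCC or its reverse complement.
Gng13, chr10:15245448-15245697, plus strand: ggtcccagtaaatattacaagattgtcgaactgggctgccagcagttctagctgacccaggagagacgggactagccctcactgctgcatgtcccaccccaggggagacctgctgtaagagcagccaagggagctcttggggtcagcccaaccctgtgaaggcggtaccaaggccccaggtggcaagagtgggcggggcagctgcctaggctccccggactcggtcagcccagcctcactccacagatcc
Pcp2, chr12:6481308-6481557, minus strand: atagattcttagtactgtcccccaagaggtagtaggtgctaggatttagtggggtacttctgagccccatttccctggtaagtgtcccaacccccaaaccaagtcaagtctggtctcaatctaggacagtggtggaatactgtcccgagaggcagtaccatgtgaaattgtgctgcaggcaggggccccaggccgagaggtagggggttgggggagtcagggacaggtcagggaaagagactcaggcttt
Trpm1, chr1:127130436-127130685, plus strand: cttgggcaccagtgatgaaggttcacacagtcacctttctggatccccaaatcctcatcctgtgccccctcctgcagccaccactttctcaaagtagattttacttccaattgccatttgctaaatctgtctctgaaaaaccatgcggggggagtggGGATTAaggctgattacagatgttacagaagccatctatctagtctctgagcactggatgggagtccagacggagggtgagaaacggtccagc
Nyx, chrX:11974717-11974966, minus strand: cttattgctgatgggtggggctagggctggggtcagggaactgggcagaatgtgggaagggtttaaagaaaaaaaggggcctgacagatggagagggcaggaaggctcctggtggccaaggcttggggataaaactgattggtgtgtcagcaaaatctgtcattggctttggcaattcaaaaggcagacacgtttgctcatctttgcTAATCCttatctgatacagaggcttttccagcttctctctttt

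The match began at base -93 in Trpm1, on the opposite strand, and at base -43 in Nyx, on the gene's own strand, counted back from the start. In windows of 300 bases, reaching 50 bases past the start and read on both strands, TAATCC was found in 2 of 7 member promoters and in 7.17% of the 33469 promoters of the RefSeq table. TAATTA, another homeodomain core, was in 0 of 7 and in 5.36%. The E-box CANNTG was in 6 of 7 and in 72.1%. These matches describe letters and not binding, and they do not overlap one another in the printed stretches of Trpm1 and Nyx.

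Diabetic and control retinas were compared with limma on log2(FPKM + 0.5) in 16363 genes. The threshold was an adjusted p of 0.05 (Benjamini-Hochberg), which 0% of genes and 0 of the 9 members reached. Without adjustment 3255 genes had a limma p below 0.05, and limma's voom on fragments rebuilt from the FPKM called 2 genes, neither of them a member. Of the 9 members, Gng13 was the 1 with an unadjusted p below 0.05 and a higher diabetic mean, where 9.15% of all genes tested had this, and Pcp2 was the 1 with a lower diabetic mean, where 10.7% did. The same genes were those whose libraries did not overlap between groups, with 1 member higher, against 12.7% of all genes, and 1 member lower, against 13.6%. These shares of members are close to the background. The median log2 difference, diabetic minus control, was 0.07 over the members and 0.00 over all genes tested. The sign of the member median rested on single libraries, since it was -0.024 without diabetic 2, -0.018 without control 1, -0.0035 without control 2 and 0.184 without control 3. The difference was positive in 6 members and negative in 3, and the signs of Grm6, which is -0.08 with the length trend of each library removed, and of Lrit3, which is 0.06 after rescaling to TPM, depended on the scaling. Rescaling to TPM moves the median of all genes by 0.13.

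**Figure D1:**
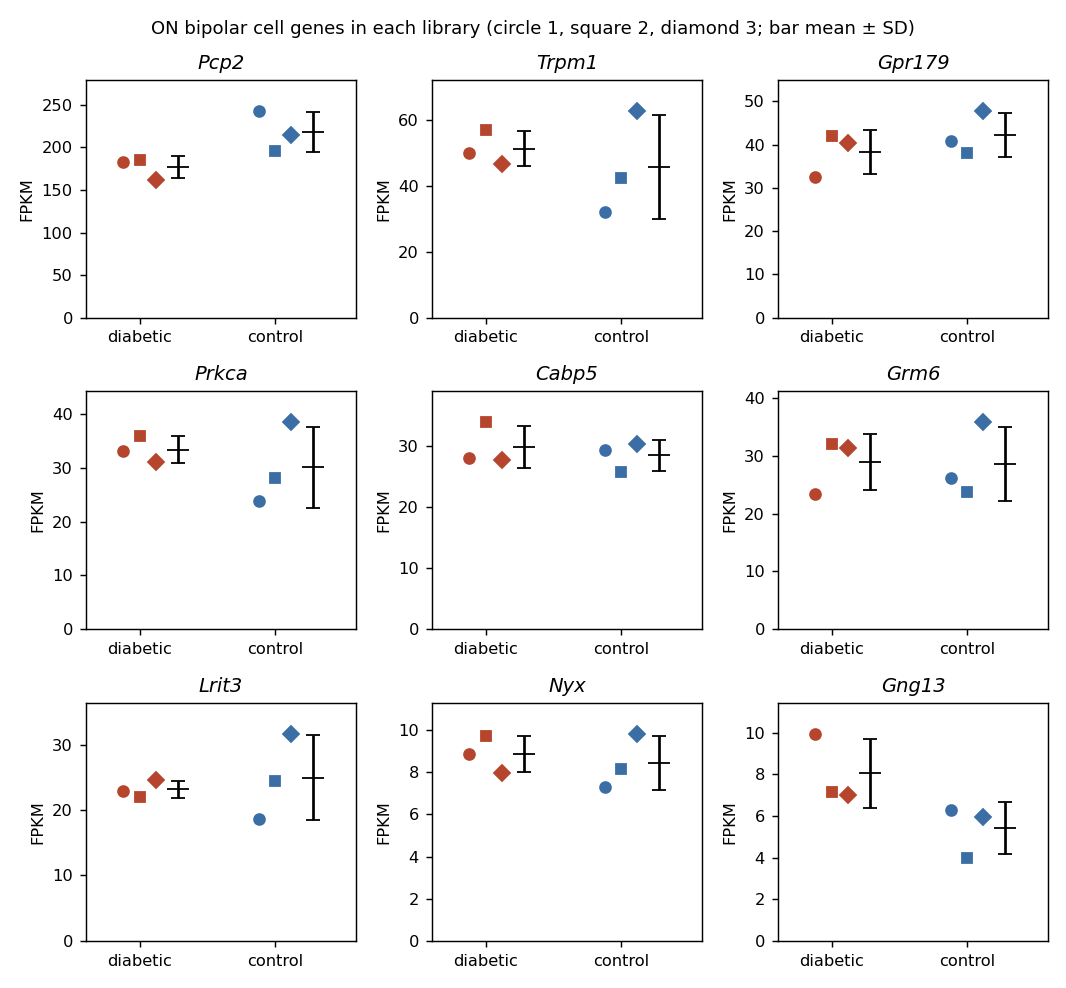
FPKM of the 9 members in the 3 diabetic libraries (left, red) and the 3 control libraries (right, blue), with the mean and SD of each group as a bar beside the points. The groups are apart for Pcp2 (diabetic 162.2 to 185.7, control 195.7 to 242.9) and Gng13 (diabetic 7.03 to 9.94, control 3.97 to 6.30) and overlap in the others.

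The receptor gene Grm6 was at 23.4, 32.0 and 31.3 FPKM in diabetic 1, 2 and 3, against 26.1, 23.8 and 35.7 FPKM in control 1, 2 and 3. Both groups span nearly the same range, and the highest value is that of control 3. Diabetic retina averaged 28.9 ± 4.81 FPKM and control retina 28.6 ± 6.33 FPKM (SD, n = 3 each). The log2 difference was 0.02, with a 95% interval from -0.40 to 0.45 (adjusted p = 0.954, limma). As a ratio, this interval runs from 0.756 to 1.37 times the control level and includes equality. What size of change 3 rats a group could detect was not tested.

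The channel gene Trpm1 was at 49.95, 57.1 and 46.8 FPKM in diabetic 1, 2 and 3, against 32.1, 42.4 and 62.9 FPKM in control 1, 2 and 3. The diabetic libraries lie inside the control range, which spans control 1 at the low end and control 3 at the high end. The log2 difference was 0.21 ± 0.23 (SE; adjusted p = 0.641, limma). With the length trend of each library removed it was 0.09, and after rescaling to TPM it was 0.35. It was 0.47 without control 3 and -0.01 without control 1, so that single control libraries decided its size and its sign. Without control 3 its unadjusted p was 0.0169 and its adjusted p 0.119 (limma), where 4015 of 16363 genes had an unadjusted p below 0.05. No overlap was left there, which is fixed in advance, since only control 3 lay above any diabetic library. The adjusted p of Trpm1 stayed between 0.119 and 0.978 over the 15 alternatives. The microRNA gene Mir211, which overlaps the Trpm1 locus on the same strand, averaged 0.0832 FPKM.

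The scaffold receptor gene Gpr179 was at 32.5, 41.9 and 40.5 FPKM in diabetic 1, 2 and 3, against 40.7, 38.1 and 47.8 FPKM in control 1, 2 and 3. The lowest value is that of diabetic 1 and the highest that of control 3, and the others lie close together. The log2 difference was -0.14 ± 0.13 (SE; adjusted p = 0.573, limma). Gpr179 has the longest gene model of the members, at 6960 nt, and long genes were on the whole higher in diabetic retina. In the 1637 tested genes of 5083 nt or more, the median log2 difference was 0.17, and 7.21% of them had a lower value than Gpr179. With the length trend of each library removed the groups of Gpr179 no longer overlapped, at a log2 difference of -0.33 (unadjusted p = 0.0114, adjusted p = 0.184, limma), and after rescaling to TPM the difference was -0.01.

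The leucine-rich repeat genes varied over a similar span. Nyx ranged from 7.97 to 9.70 FPKM in diabetic and from 7.29 to 9.82 FPKM in control retina, with a log2 difference of 0.07 ± 0.14 (SE). Lrit3 ranged from 22.0 to 24.6 FPKM in diabetic and from 18.7 to 31.6 FPKM in control retina, with a log2 difference of -0.07 ± 0.18 (SE). Both overlapped between the groups, and their adjusted p values by limma were 0.795 and 0.850. For Lrit3 the 3 diabetic libraries sat within a narrow band in the middle of the control values.

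Among the genes used as markers of these cells, Prkca encodes protein kinase C alpha, the usual immunostain of rod bipolar cells, which some amacrine cells also carry. It was at 33.0, 35.9 and 31.1 FPKM in diabetic 1, 2 and 3, against 23.9, 28.0 and 38.4 FPKM in control 1, 2 and 3. As for Trpm1, the diabetic values lay between control 2 and control 3. The log2 difference was 0.17 ± 0.17 (SE; adjusted p = 0.606, limma) and 0.02 without control 1. It was 0.36 without control 3 (unadjusted p = 0.0142, adjusted p = 0.109, limma). The groups then did not overlap, which is fixed in advance as for Trpm1. With the length trend removed the difference of Prkca was 0.09, and after rescaling to TPM it was 0.31. Cabp5, which encodes a calcium-binding protein of rod bipolar and some cone bipolar cells, ranged from 27.8 to 33.9 FPKM in diabetic and from 25.7 to 30.4 FPKM in control retina (log2 difference 0.07 ± 0.11, SE; adjusted p = 0.766, limma).

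Pcp2, or L7, encodes a protein with a GoLoco motif that binds G protein alpha subunits and is known from cerebellar Purkinje cells and from bipolar cells. It was the most abundant member by FPKM, with 183.2, 185.7 and 162.2 FPKM in diabetic 1, 2 and 3, against 242.9, 195.7 and 214.6 FPKM in control 1, 2 and 3. All diabetic libraries were below all control libraries, the nearest being diabetic 2 and control 2. Diabetic retina averaged 177.0 ± 12.9 FPKM and control retina 217.7 ± 23.7 FPKM (SD, n = 3 each). The log2 difference was -0.29, its 95% interval -0.54 to -0.05 (unadjusted p = 0.0250, adjusted p = 0.195, limma). The size of the difference depended on the scaling. It was -0.16 after rescaling to TPM, -0.17 with the length trend removed, -0.08 under quantile normalization and -0.25 with voom, and under each of these the groups overlapped. Pcp2 has a gene model of 461 nt, and the 1636 tested genes of 421 to 953 nt had a median log2 difference of -0.15, with 32.5% of them lower than Pcp2.

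Gng13 encodes a G protein gamma subunit that pairs with the beta subunit of Gnb3 in ON bipolar cells and is also known from taste cells. It was the least abundant member by FPKM, with 9.94, 7.17 and 7.03 FPKM in diabetic 1, 2 and 3, against 6.30, 3.97 and 5.95 FPKM in control 1, 2 and 3. All diabetic libraries were above all control libraries, with diabetic 1 the highest and control 2 the lowest. The log2 difference was 0.54 with a 95% interval from 0.06 to 1.02 (unadjusted p = 0.0330, adjusted p = 0.214, limma). These values rest on few fragments, 67, 43 and 47 in diabetic 1, 2 and 3 and 38, 17 and 27 in control 1, 2 and 3. The exact 95% Poisson interval, which covers counting error only, ran from 5.16 to 9.34 FPKM in diabetic 3 and from 4.46 to 8.65 FPKM in control 1, so the nearest libraries of both groups were not separated by counting. The groups stayed apart after rescaling to TPM, under quantile normalization, with the length trend removed and with voom. The other alternatives keep the order of the libraries or leave 1 out, so they could not make the groups overlap. Over the 15 alternatives the log2 difference ran from 0.35, without control 2, to 0.69, after rescaling to TPM. The adjusted p values by limma ran from 0.155 to 0.435.

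Gng13 and Pcp2 each overlap another gene on the opposite strand, and the labels name no strand marking of the libraries, so reads in the shared stretch cannot be assigned to a strand. In the table's own coordinates, whose build the labels do not name, Gng13 (ENSRNOG00000039350) is a plus-strand gene of chromosome 10, start 15088935 and end 15090839, and shares 524 bases of its locus with Chtf18, a gene of a replication clamp loader. Chtf18 was at 6.73, 6.40 and 5.51 FPKM in diabetic 1, 2 and 3, against 5.40, 3.90 and 6.32 FPKM in control 1, 2 and 3, so that it too was highest in diabetic 1 and lowest in control 2 (log2 difference 0.25, adjusted p = 0.470, limma). The ratio of Gng13 to Chtf18 was between 1.12 and 1.48 in diabetic and between 0.941 and 1.17 in control libraries, which overlap.

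Pcp2 (ENSRNOG00000000993), a minus-strand gene of chromosome 12 with start 2172378 and end 2174131, shares 874 bases of its locus with Pet100, a gene of cytochrome c oxidase assembly. Pet100 was at 12.8, 16.5 and 14.1 FPKM in diabetic 1, 2 and 3, against 19.5, 17.4 and 18.9 FPKM in control 1, 2 and 3, with no overlap, as for Pcp2. The log2 difference of Pet100 was -0.36 (unadjusted p = 0.0148, adjusted p = 0.171, limma). The ratio of Pcp2 to Pet100 was between 11.2 and 14.3 in diabetic and between 11.2 and 12.5 in control libraries. Whether shared reads have a part in the values of Gng13 and Pcp2 was not tested. The other 7 members overlap no gene in the table with a mean of at least 1 FPKM, apart from Trpm1, where the annotated microRNA gene AABR07004101.1 on the opposite strand averaged 1.41 FPKM.

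**Figure D2:**
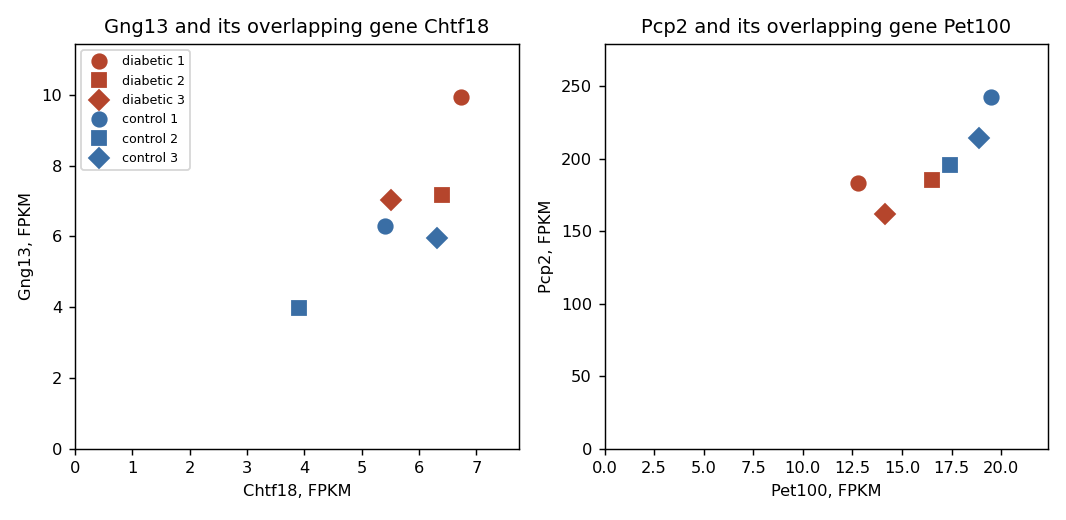
FPKM of Gng13 against Chtf18 (left) and of Pcp2 against Pet100 (right), 1 point per library, red for diabetic and blue for control, with circle, square and diamond for libraries 1, 2 and 3. Pcp2 and Pet100 are both lower in the 3 diabetic libraries, and Gng13 and Chtf18 are both highest in diabetic 1 and lowest in control 2.

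The ratio of Gng13 to Pcp2 within a library, which no scaling of whole libraries can change, was 0.0543, 0.0386 and 0.0433 in diabetic 1, 2 and 3, against 0.0259, 0.0203 and 0.0277 in control 1, 2 and 3. The groups were apart in this ratio, but the pair was picked after the values were seen and the ratio is a description. The ratios of the 8 other members to Grm6 all overlapped between groups. That of Trpm1 to Grm6 was 1.81 ± 0.323 in diabetic and 1.59 ± 0.313 in control retina (SD, n = 3 each). That of Gpr179 to Grm6 was 1.39, 1.31 and 1.29 in diabetic 1, 2 and 3, against 1.56, 1.602 and 1.34 in control 1, 2 and 3.

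**Figure D3:**
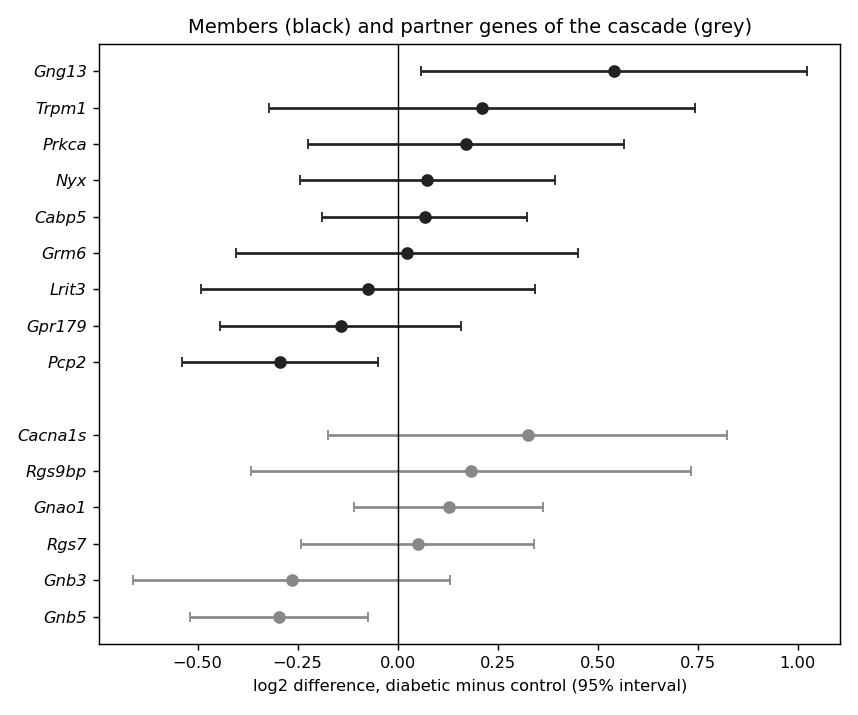
Log2 difference, diabetic minus control, with its 95% interval from limma for the 9 members (black) and for 6 partner genes of the cascade (grey). The intervals of Gng13 (0.06 to 1.02), Pcp2 (-0.54 to -0.05) and Gnb5 (-0.52 to -0.07) lie on 1 side of 0 before adjustment, and no gene passed after it.

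The order of the members by level, averaged over the 6 libraries, was Pcp2 at 197.4 FPKM, Trpm1 at 48.6, Gpr179 at 40.3, Prkca at 31.7, Cabp5 at 29.2, Grm6 at 28.7, Lrit3 at 24.1, Nyx at 8.63 and Gng13 at 6.73 FPKM. Pcp2 stood above Trpm1 in 6 of 6 libraries by at least 3.25-fold, and Lrit3 above Nyx in 6 of 6 by at least 2.26-fold. The neighbours between Trpm1 and Lrit3 changed places in at least 1 library each. Cabp5 was above Grm6 in 4 of 6 libraries, and their levels do not differ beyond their spread. Like the other close neighbours, Nyx and Gng13 changed places, and Nyx was above Gng13 in 5 of 6 libraries. By FPKM, the receptor, channel and scaffold genes stood close to one another, with Nyx below them. The gene models ran from 354 nt for Gng13 and 461 nt for Pcp2 to 6960 nt for Gpr179. The part of length in this order was not tested.

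Control libraries differed from each other in these genes more than diabetic ones did, a difference that was not tested. The median over the members of the SD of log2(FPKM + 0.5) was 0.15 in diabetic and 0.30 in control retina, where the medians over all genes tested were 0.14 and 0.17. For Trpm1 the SD was 0.15 in diabetic and 0.48 in control retina, and 89.1% of all genes tested had a smaller control SD. For Lrit3 it was 0.08 and 0.37, and for Prkca 0.10 and 0.34. Gpr179 and Cabp5 went the other way, with 0.20 and 0.17 for Gpr179 and 0.16 and 0.13 for Cabp5.

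The spread lay along the libraries. Control 3 was the highest of the 6 libraries in 6 of 9 members, the exceptions being Pcp2, Gng13 and Cabp5, where 14.5% of all genes tested were highest in control 3. It was above control 2 in 9 of 9 members, with a median log2 gap of 0.36, and above control 1 in 7 of 9, with 0.40. It was also above diabetic 1 and diabetic 3 in 8 of 9 each. Shares over all genes were not counted for these pairs, and members that vary together are not separate observations. Over all genes tested the median deviations from the control mean were -0.01, 0.01 and 0.00 in control 1, 2 and 3. Control 1 was the lowest library in 4 members, Trpm1, Nyx, Lrit3 and Prkca, where 21% of all genes tested were lowest in control 1. With the length trend of each library removed, control 3 was still highest in 5 members and above the 6-library mean in 8 of 9. The share of all genes was not counted there. The median log2 range among control libraries was 0.58 over the members and 0.33 over all genes tested. A range over 2 libraries is smaller than one over 3 by construction. It was 0.36 over the members and 0.21 over all genes without control 1, 0.40 and 0.21 without control 2, and 0.23 and 0.17 without control 3.

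**Figure D4:**
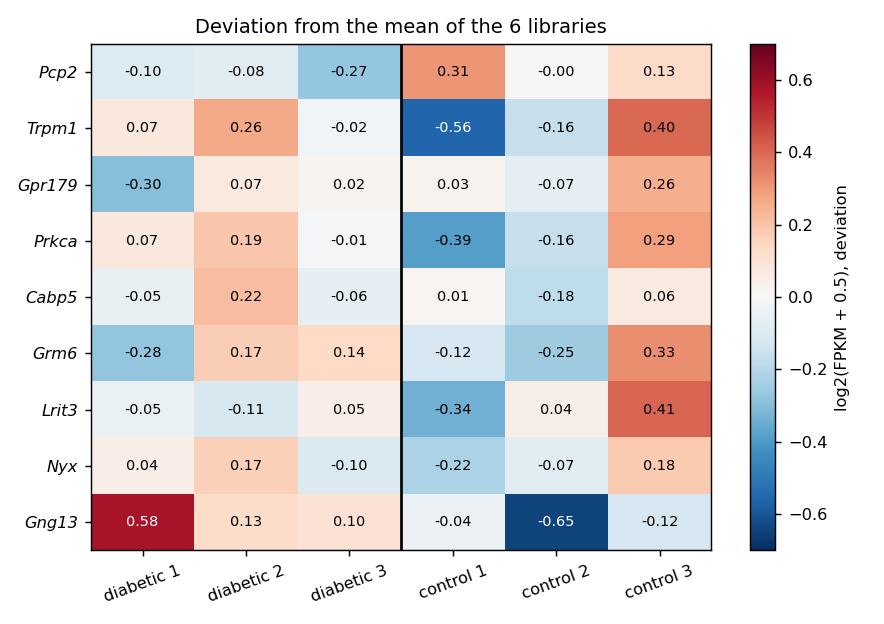
Deviation of log2(FPKM + 0.5) from the mean of the 6 libraries for each member (rows, ordered by level) in each library (columns, diabetic left of the line and control right of it), red above and blue below. Control 3 is above the mean in 8 of 9 members, with 0.40 for Trpm1 and 0.41 for Lrit3, and control 1 is at -0.56 for Trpm1.

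Among markers of other cells, control 3 stood apart from all other libraries in the lens list. The summed level of the 8 lens markers was 11.7 to 45.4 FPKM in diabetic libraries and 13.7, 39.3 and 352.0 FPKM in control 1, 2 and 3. The pigment epithelium list, 7 of 7 genes tested, summed to 95.6, 41.5 and 43.4 FPKM in diabetic 1, 2 and 3, against 97.2, 85.4 and 47.5 FPKM in control 1, 2 and 3. Control 3 was the lowest control library there, but lay near diabetic 2 and diabetic 3. A single gene held most of that sum in each library. The 8 ganglion cell markers summed to 447.8, 362.4 and 356.7 FPKM in diabetic 1, 2 and 3, against 527.5, 518.8 and 382.9 FPKM in control 1, 2 and 3. Control 3 was again the lowest control library and again near diabetic 2 and diabetic 3. The part of these 3 marker lists in the member values was not tested. The median deviation of all genes tested was 0.00 on the log2 scale in control 3. Rebuilt fragments numbered 16277864 to 19115426 per diabetic and 12417686 to 16941864 per control library, with 13035314 in control 3.

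**Figure D5:**
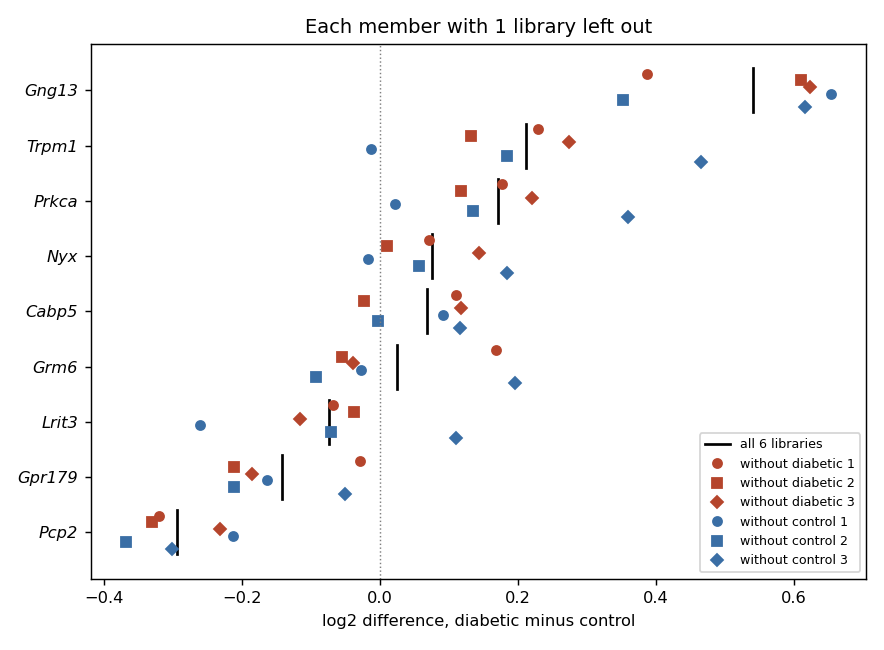
Log2 difference of each member with all 6 libraries (black line) and with 1 library left out (red for a diabetic library, blue for a control library; circle, square and diamond for 1, 2 and 3). Leaving out control 3 moves Trpm1 to 0.47 and Prkca to 0.36, and leaving out control 1 moves them to -0.01 and 0.02. Gng13 and Pcp2 keep their side of 0, which is fixed in advance because their groups do not overlap.

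The comparison was extended to 4 lists of other genes of the pathway and of bipolar cells. Partners of the cascade were read from a list of 7 genes, of which Rgs7bp was not analysed here. Of the 6 tested, 0 passed, 4 had positive and 2 negative log2 differences, and the median was 0.09. Gnb5, whose product pairs with RGS proteins such as RGS7, was at 421.2, 356.2 and 409.4 FPKM in diabetic 1, 2 and 3, against 483.5, 502.2 and 469.4 FPKM in control 1, 2 and 3. The groups of Gnb5 did not overlap (log2 difference -0.30, unadjusted p = 0.0159, adjusted p = 0.175, limma), and the difference was -0.02 under quantile normalization. Gnb3, the beta subunit that ON bipolar cells share with cones, averaged 170.3 ± 30.7 FPKM in diabetic and 204.7 ± 36.7 FPKM in control retina (SD, n = 3 each; log2 difference -0.27, adjusted p = 0.419, limma), with overlap. Both beta subunit genes had lower diabetic means while Gng13 had a higher one, and the ratio of Gng13 to Gnb3 was between 0.0345 and 0.0697 in diabetic and between 0.0228 and 0.0305 in control libraries. Which retinal cells gave the RNA of Gnb5, at a mean of 440.3 FPKM against 28.7 for Grm6, was not tested. Gnao1, the G alpha subunit gene through which mGluR6 acts, averaged 79.5 ± 5.95 and 72.9 ± 7.96 FPKM (diabetic and control), and Cacna1s, a calcium channel gene, 0.903 ± 0.167 and 0.616 ± 0.0590 FPKM (SD, n = 3 each). Neither passed (adjusted p = 0.520 for Gnao1 and 0.431 for Cacna1s, limma), and the groups overlapped for Gnao1 and not for Cacna1s. Cacna1s lay near the filter of 0.5 FPKM and rested on 37 to 113 fragments per library.

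Transcription factor genes of bipolar cells had a median log2 difference of -0.04 over 12 genes, which was 0.07 after rescaling to TPM, and 0 passed. That of smallest p was Sebox, with -0.43 (unadjusted p = 0.0335, adjusted p = 0.215, limma). Next were Irx6, with -0.28, Bhlhe23, a factor needed for rod bipolar cells in mice, with -0.23, and Neurod4, with -0.10, which was 0.04 with TPM. The groups of Irx6 and Bhlhe23 did not overlap, whereas those of Sebox and Neurod4 did.

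OFF bipolar cells respond to glutamate through ionotropic receptors and have no mGluR6 cascade. Markers of OFF and other cone bipolar cells gave 8 of 9 positive log2 differences (7 of 9 with the length trend removed) with a median of 0.13, and 0 passed. Scgn, which encodes the calcium sensor secretagogin of cone bipolar cells, was the exception. It was at 54.5, 48.2 and 39.6 FPKM in diabetic 1, 2 and 3, against 75.4, 80.0 and 61.7 FPKM in control 1, 2 and 3. The diabetic libraries were all below the control ones (log2 difference -0.61, unadjusted p = 0.00381, adjusted p = 0.136, limma), and the difference was between -0.57 and -0.47 under the other scalings. Khdrbs3, Neto1 and Erbb4 had 0.25, 0.33 and 0.44 with overlapping groups. The tenth gene of that list, Fezf1, was below the filter.

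On the photoreceptor side of the synapse 0 of 8 genes passed and the median log2 difference was 0.09, which was -0.00 with the length trend removed. Cabp4, which encodes a calcium-binding regulator of the photoreceptor calcium channel, was at 465.9, 414.0 and 467.2 FPKM in diabetic 1, 2 and 3, against 634.7, 684.4 and 620.6 FPKM in control 1, 2 and 3. Its groups were well apart (log2 difference -0.53, 95% interval -0.75 to -0.31, unadjusted p = 7.3e-04, adjusted p = 0.127, limma), and it was -0.23 under quantile normalization. Elfn1, whose product in rods binds mGluR6 across the cleft, had a log2 difference of 0.36 and overlapped (unadjusted p = 0.0448, adjusted p = 0.241, limma). Elfn2 had 0.30 and overlapped. Dag1, the dystroglycan gene, had 0.15 without overlap (unadjusted p = 0.110, adjusted p = 0.354, limma).

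Marker lists of the other retinal cells give the setting of these values. Rod markers, which mark the library as retina, summed to 28414 to 32899 FPKM in diabetic and 33772 to 37727 FPKM in control libraries. Their log2 difference was negative in 7 of 8 genes with a median of -0.20, and under quantile normalization it was negative in 2 of 8 with a median of 0.06. Amacrine markers were positive in 7 of 8 genes with a median of 0.17, and negative in 3 of 8 with a median of 0.10 once the length trend was removed. The summed level of the amacrine markers was 228.0 to 261.0 FPKM in diabetic and 212.2 to 231.7 FPKM in control libraries. As Prkca is also carried by some amacrine cells, these values stand beside it, and their part in it was not tested. Median log2 differences were 0.13 for horizontal cell, -0.17 for microglia, -0.31 for pigment epithelium and -0.96 for lens markers. The lens value rests on control 3, which is itself part of the control mean. The median deviation of the lens markers from that mean was -1.39, -0.40 and -0.77 in diabetic 1, 2 and 3. It was -1.43, -0.59 and 2.25 in control 1, 2 and 3. The median log2 differences were -0.07 for cone, 0.04 for Müller glia, -0.03 for ganglion cell and -0.04 for endothelial markers. Each of these last 4 changed sign under another scaling. Of the endothelial list only 2 of 5 genes were tested, and of the horizontal cell list 4 of 5. In all of these lists 0 genes passed.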

How the data were processed

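Poly-A RNA of 6 retina samples was sequenced as read pairs, with no strand marking named in the labels. The submitters' processing notes name HISAT2 2.0.5 as aligner. For counting tool, build and annotation: not given in the sources used here. FPKM of 34170 genes, with gene lengths, are the values the authors deposited, per the file headers. FPKM times length was a whole multiple of 1 step per library (100% of values within 0.05 of a whole number), which gave back fragments. These summed to between 12417686 and 19115426 per library. Every pair of libraries differed beyond counting noise (lowest chi-square over its degrees of freedom 10.7).

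A mean of 0.5 FPKM or more was required. The test was limma 3.58.1 (R 4.3.3) on log2(FPKM + 0.5) (group as the only term, eBayes with trend, two-sided, Benjamini-Hochberg over all 16363 genes, threshold 0.05). The pseudocount understates the change of low genes. Each library has its own labelled body weight, so p-values rest on the spread between rats. The members and lists were chosen with earlier results of these data known. All members are described, with values per library for the 5 of smallest p, for the highest and lowest in level and, chosen after its values were seen, for Grm6. Of each of the 4 lists of pathway and bipolar cell genes, the 4 genes of smallest p are named, and of the marker lists of other cells none, and the partners Chtf18 and Pet100 and the ratios were chosen after their values were seen. Replicate numbers were not used as pairs in the main test. The functions were tested on simulated data. The plots used matplotlib 3.10.9. The m6A peaks of the same study were not analysed here.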

Additional observations from a re-analysis of the deposited data

How the results depend on the processing

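Over the 15 alternatives, 0 members passed the threshold in each, and of 135 member values 124 kept their direction. Not all of the 135 could reverse. The changes of filter and the replicate block left the log2 difference of every member as it was. With 1 library left out, Gng13 and Pcp2 could not change sign, since their groups do not overlap. Reversed log2 differences, none past the threshold, were as follows. Grm6 was at -0.077 with the length trend removed, -0.055 without diabetic 2, -0.040 without diabetic 3, -0.027 without control 1 and -0.094 without control 2, and its range with 1 library left out was -0.094 to 0.195. Cabp5 was at -0.024 without diabetic 2 and -0.0035 without control 2 (range -0.024 to 0.117). Lrit3 was at 0.062 with TPM and 0.110 without control 3 (range -0.262 to 0.110). Without control 1, Nyx was at -0.018 and Trpm1 at -0.014 (range of Trpm1 -0.014 to 0.465). The count of all genes called was 2 with voom and between 0 and 4 when 1 library was left out, against 0. Members with no overlap and a higher diabetic level numbered 3 without control 3, with Trpm1 and Prkca beside Gng13, and 1 otherwise, a range of 1 to 3. For Trpm1 and Prkca this was fixed in advance, since only control 3 lay above any diabetic library. The share of all genes tested was 21.2% without control 3, against 12.7% with all libraries. Those with a lower level numbered 0 with TPM, quantile normalization and voom, where 5.6%, 11.9% and 9.71% of all genes were so, against 13.6%. The number was 1 otherwise, which was Pcp2 except with the length trend removed, where Pcp2 overlapped and Gpr179 did not. The member median ranged from -0.02 to 0.18 when 1 library was left out and was 0.20 with TPM. The cause of these shifts was not tested.

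The replicate numbers are shared by the groups in the labels, but deviations of same-numbered libraries correlated at -0.05, -0.08 and 0.00. No pairing shows in these values, which cannot tell whether same-numbered rats were handled together. With the replicate block 0 members and 0 genes passed, the unadjusted count was 2790 against 3255, and Gng13 and Pcp2 had adjusted p values of 0.240 and 0.275. Depth limits Gng13 most, with 17 fragments in control 2, and the 95% intervals of 7 members, all but Gng13 and Pcp2, include 0 with 3 rats a group.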
